A study of Mus musculus with 2 samples.

Results

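Chemokine ligand genes encode the small secreted proteins that guide migrating cells. The 36 genes described here are the protein-coding genes of GENCODE mouse release M21 whose symbol is Ccl, Cxcl or Cx3cl followed by a number and an optional letter, together with Xcl1, out of 21938 protein-coding genes in all. Ccl25 was left out of the set by the same rule. The rule used symbols alone and no measured value. Open chromatin was measured by DNase-seq, in which cuts made by DNase I in nuclei mark accessible DNA, in whole thymus of 10-day-old female mice of the strain B6CASTF1/J, the F1 hybrid of C57BL/6J and CAST/EiJ. There was 1 group of 2 libraries, biological replicates 1 and 2, from females that the labels number separately under a single donor identifier. No treated or control group was part of the design, so values are set beside all protein-coding genes and between the replicates, without a test. Whether reads of the CAST/EiJ chromosomes were placed less often on the reference was not tested.

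Chemokines bind G protein-coupled receptors on the cells they attract. CC, CXC, CX3C and XC ligands are named by the spacing of their first cysteines, and many of their genes lie in clusters left by tandem duplication. In the thymus, stromal and dendritic cells produce several of them: Cxcl12 and the CCR7 ligands Ccl19 and Ccl21a guide developing T cells through cortex and medulla, and Xcl1, Ccl17 and Ccl22 act in the medulla. Most cells in a thymus are developing T cells, so a whole-tissue library reads chiefly their chromatin. In such a bulk sample, a site open in few cells and a site cut weakly in many cells cannot be told apart.

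The libraries listed 132737 peaks in replicate 1 and 69798 in replicate 2, covering 29.5 and 14.1 Mb. The number of reads is not given in the sources used here, and no counting interval is attached to any share. The deposited height of a peak is also given as a multiple of the median height of all peaks in its library, which was 0.625 in replicate 1 and 0.828 in replicate 2. Of 8 T lineage markers, all 8 had a peak within 500 bp of a start in both replicates, with median heights of 8.96 and 5.97 times the library median. Of 8 thymic epithelial markers, 4 had such a peak in both replicates (Epcam, Prss16, Aire and Ly75), and Foxn1, Krt5, Krt8 and Psmb11 had none. The same count was 3 of 8 for macrophage and dendritic cell markers in both replicates. It was 3 and 2 of 6 for endothelium, 3 and 2 of 6 for fibroblasts and mesenchyme, 1 and 1 of 4 for B cells and erythroid cells each, and 0 of 4 for hepatocytes.

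The sequences at the starts of 3 members show what was measured at single promoters. Ccl27a and Cxcl10 had the highest promoter peaks among the members, and Cxcl9, a neighbour of Cxcl10 that acts on the same receptor, had a far weaker one. Each promoter below is the RefSeq sequence from 250 bases before to 50 bases after a start (GRCm38.p6, minus strand), 5′ to 3′. Capitals mark bases under a footprint of replicate 1, a short stretch protected from cutting inside an accessible region. They lie at chr4:41774127-41774426 (Ccl27a), chr5:92348840-92349139 (Cxcl10) and chr5:92328030-92328329 (Cxcl9).
Ccl27a: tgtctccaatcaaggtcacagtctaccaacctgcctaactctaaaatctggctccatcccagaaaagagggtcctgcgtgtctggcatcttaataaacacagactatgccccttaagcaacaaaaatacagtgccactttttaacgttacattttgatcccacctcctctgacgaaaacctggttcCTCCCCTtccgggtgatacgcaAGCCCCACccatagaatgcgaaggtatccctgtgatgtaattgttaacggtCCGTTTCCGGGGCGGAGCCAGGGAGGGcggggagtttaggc
Cxcl10: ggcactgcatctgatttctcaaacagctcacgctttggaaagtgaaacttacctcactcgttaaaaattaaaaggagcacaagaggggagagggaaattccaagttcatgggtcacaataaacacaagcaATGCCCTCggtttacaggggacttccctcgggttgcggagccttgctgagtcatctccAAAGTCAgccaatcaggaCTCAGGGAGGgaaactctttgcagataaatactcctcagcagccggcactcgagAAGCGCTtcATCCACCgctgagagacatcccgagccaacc
Cxcl9: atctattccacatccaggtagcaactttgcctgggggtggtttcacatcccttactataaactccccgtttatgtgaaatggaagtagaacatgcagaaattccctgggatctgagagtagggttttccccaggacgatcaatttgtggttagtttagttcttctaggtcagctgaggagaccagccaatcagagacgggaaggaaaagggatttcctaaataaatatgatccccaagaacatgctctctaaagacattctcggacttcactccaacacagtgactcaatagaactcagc
The Ccl27a promoter held 3 footprints in replicate 1 and 2 in replicate 2, and the Cxcl10 promoter held 5 and 2. The Cxcl9 sequence shown held none in either replicate. It does not reach the Cxcl9 peak of replicate 1, at chr5:92327441-92327660, which held 1 footprint.

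Most chemokine ligand genes had no peak at their starts. A peak lay within 500 bp of a protein-coding transcript start for 8 of 36 members in replicate 1 (22.2%) and for 3 of 36 in replicate 2 (8.33%), a mean of 15.3% ± 9.82 (SD, n = 2). The shares over all 21938 genes were 61.9% and 56.6%. Both replicates listed a promoter peak for 3 members (8.33%), against 56% of all genes. The 3 genes were Ccl27a, Cxcl10 and Ccl4, and 28 members had none in either replicate, against 8208 of the 21938 genes. The larger replicate 1 list added Ccl1, Ccl6, Cxcl3, Cxcl5 and Cxcl9. When each library was reduced to its 69798 highest peaks, replicate 1 listed only Ccl27a, Cxcl10 and Ccl4, the same 3 genes as replicate 2, and the shares of all genes became 54.5% and 56.6%.

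Where members had a promoter peak, it was low. The median of the highest promoter peak was 0.667 times the library median over 8 members in replicate 1 and 0.846 times over 3 members in replicate 2. Over all genes with a promoter peak it was 6.94 and 4.98 times. The members' replicate 1 value was 1.25 times with equal peak numbers, 1.26 times within 250 bp and 1.14 times in the smaller peak file, each over fewer members. No member reached the median of all genes in either replicate. A footprint lay in a promoter peak of 5 of 8 members in replicate 1 and of 3 of 3 in replicate 2, against 95.7% and 97.8% of all genes with a promoter peak.

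**Figure D1:**
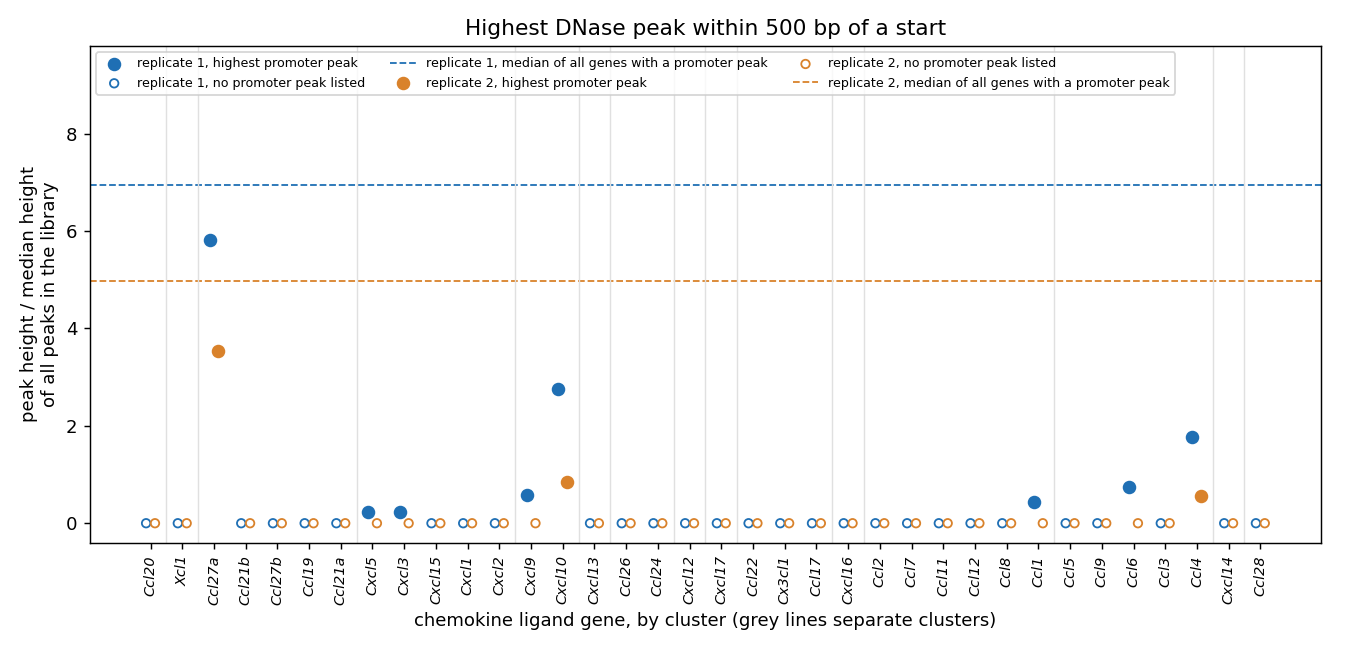
Height of the highest peak within 500 bp of a start, as a multiple of the library's median peak height, for the 36 chemokine ligand genes ordered by cluster. Filled points are listed peaks, open points at 0 are members without one, and dashed lines are the medians of all genes with a promoter peak (6.94 in replicate 1 and 4.98 in replicate 2). Every filled point lies under the line of its replicate, and points of both colours are filled for Ccl27a, Cxcl10 and Ccl4 alone.

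Ccl27a, which encodes a ligand of CCR10 made by skin keratinocytes, had the highest promoter peak. Its height was 3.64 in replicate 1 and 2.94 in replicate 2, or 5.81 and 3.55 times the library median (mean 4.68 ± 1.60, SD, n = 2). The peak lay at chr4:41774121-41774280 in replicate 1. Of the 8 annotated starts of Ccl27a, only the 5 from position 41774097 to 41774247 had a peak within 500 bp. The other 3 starts, at 41770212, 41770224 and 41771547, had none in either replicate. The listed peak thus lay at the upstream starts, several kilobases before the start of the short transcripts. Sequence around the starts at 41770212 and 41770224 matches the Ccl27b start at 99.0% identity. At those starts, closed chromatin and reads that could not be placed cannot be told apart. A smaller peak 257 bp from a start in replicate 1 and 277 bp in replicate 2 stood at 1.11 and 1.27 times the median. The lowest deposited false discovery rate (FDR) of the cut rate near a start of Ccl27a was 1.94e-28 in replicate 1 and 6.55e-22 in replicate 2.

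Cxcl10, an interferon-induced ligand of CXCR3, had a promoter peak of height 1.73 in replicate 1 and 0.701 in replicate 2. These were 2.76 and 0.846 times the library median (mean 1.80 ± 1.35, SD, n = 2). The peak, at chr5:92348841-92349040 in replicate 1, covered the start itself and also lies inside the span of Art3. Its neighbour Cxcl9, which acts on the same receptor, had in replicate 1 a peak of height 0.365 that began 419 bp from its start, within the gene. Replicate 2 listed no peak at Cxcl9. Ccl4, secreted by activated T cells and macrophages, had heights of 1.11 and 0.469 at chr11:83662261-83662500, 84 bp upstream of its start. That is 1.77 and 0.566 times the median (mean 1.17 ± 0.850, SD, n = 2). For all 3 genes the height over the median was larger in replicate 1, and for Cxcl10 and Ccl4 it was below 1 in replicate 2.

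The members with a promoter peak in replicate 1 alone included Ccl6, a myeloid chemokine of rodents, at 0.750 times the median. Its lowest FDR was 1.71e-12 over 314 listed bases. Ccl1, a ligand of CCR8, stood at 0.426 times. The neutrophil attractants Cxcl3 and Cxcl5 stood at 0.241 and 0.222 times. In replicate 2 none of these 4 had a base within 500 bp that was listed under an FDR of 0.05. None of the 4 promoter peaks was among the 69798 highest peaks of replicate 1.

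The base-level FDR file gave nearly the same picture as the peaks. At least 1 base within 500 bp of a start was listed under 0.05 for 8 members in replicate 1 and 4 in replicate 2, against 63.4% and 57.6% of all genes. The additional member in replicate 2 was Ccl3, a neighbour of Ccl4, with 26 listed bases and a lowest FDR of 0.0406. No such base was found in either replicate for 27 of the 36 members, against 7880 of the 21938 protein-coding genes.

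CpG-rich starts are open in most tissues, and few of the chemokine genes have one. The ratio of observed to expected CpG within 500 bp of the start had a median of 0.211 over members and 0.561 over all genes. Under a threshold of 0.6, 33 members were CpG-poor. Of these, 8 (24.2%) and 3 (9.09%) had a promoter peak, against 35.2% and 29% of 11714 CpG-poor genes. Over CpG-poor genes with a promoter peak, the median of the highest was 3.25 and 2.46 times the library median. Over the CpG-poor members it was 0.667 and 0.846 times. Ccl27a, at 5.81 and 3.55 times, was the only member above the CpG-poor median. The 3 CpG-rich members were Cxcl12 (ratio 0.782), Cxcl14 (0.717) and Cxcl16 (0.607). None of the 3 had a promoter peak or a listed base in either replicate, against 92.6% and 88.2% of 10224 CpG-rich genes. Cxcl16, a membrane-bound ligand of CXCR6, starts 44 bp from a start of Zmynd15, so its promoter window takes in that start too.

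**Figure D2:**
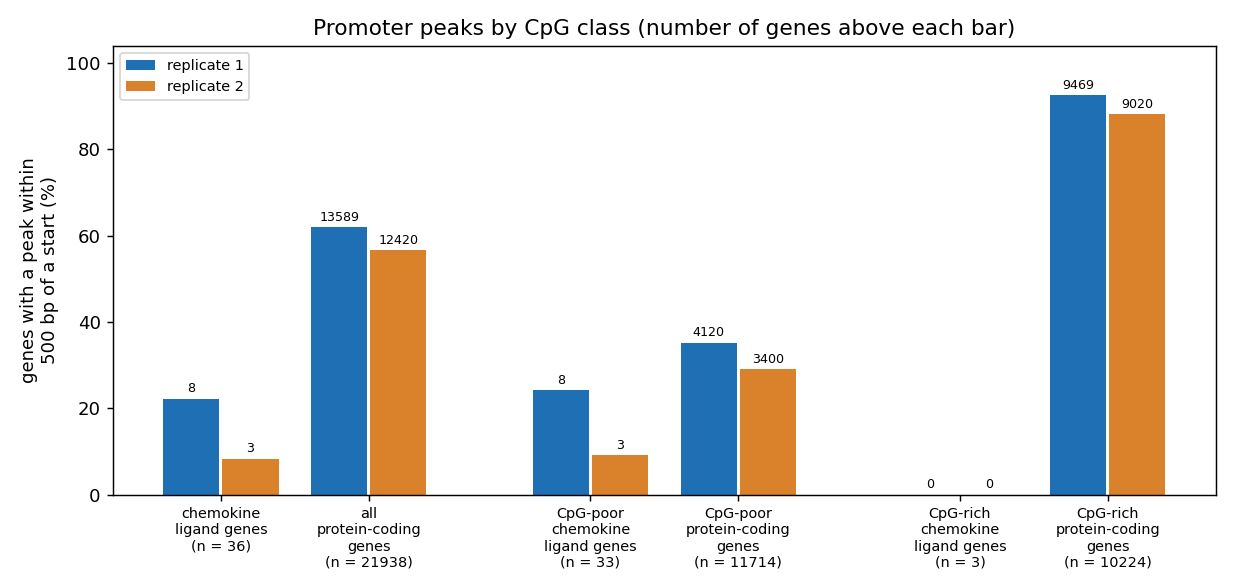
Share of genes with a peak within 500 bp of a start (%), for chemokine ligand genes and protein-coding genes, over all genes and within the CpG-poor and CpG-rich classes, by replicate. Numbers above the bars are genes. The chemokine bars are the lower ones in every class and replicate, from 0 of 3 in the CpG-rich class to 8 of 33 CpG-poor members in replicate 1.

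The ligands known for guiding cells within the thymus and lymph nodes had no listed peak at their starts. Ccl19, Ccl21a and Ccl21b, the CCR7 ligands, had no promoter peak and no distal peak in either replicate. Nor had Ccl27b, a near copy of Ccl27a. All 4 lie with Ccl27a on chromosome 4, where the sequence itself limits the measurement. Around the start of each of these 5 genes, the 500 bp on either side recur elsewhere on the chromosome over at least 80% of their length at 90% identity or more. The best match was 100% identical for Ccl21b and Ccl27b, 99.2% for Ccl19, 99.0% for Ccl21a and 94.5% for Ccl27a at its upstream start. None of the matched copies held a peak. The distal peaks of the cluster lay on the far side of Ccl27a, 32372 bp downstream in Il11ra1 (5.41 and 1.39 times the median) and, in replicate 2 alone, 13332 bp downstream (0.881 times). The region that spans the genes and copies, chr4:41769724-42774418, held 2 peaks in replicate 1 and 3 in replicate 2. That is 0.199 and 0.299 per 100 kb, against 4.87 and 2.56 per 100 kb of the genome. The 2 peaks of replicate 1, and 2 of the 3 in replicate 2, were the Ccl27a promoter peaks described above. Whether reads that match several places were kept is not given in the sources used here. At the 4 of these genes without a peak, closed chromatin and reads that could not be placed cannot be told apart. The same holds for the Ccl27a starts at 41770212 and 41770224, where the sequence matches the Ccl27b start at 99.0% identity.

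Cxcl12, the CXCR4 ligand, lies in unique sequence. It had no promoter peak, but a peak 1435 bp upstream of a start in replicate 1 and 1405 bp upstream in replicate 2, at 1.59 and 0.552 times the median. A peak inside the gene, 5404 bp downstream of a start, stood at 1.00 and 0.448 times. Another peak, 37541 bp upstream, was listed in replicate 1 only, at 0.250 times. Cxcl13, which attracts B cells through CXCR5, had its nearest peaks 6351 and 6414 bp upstream, at 1.45 and 0.364 times. Its other distal peak, 13970 bp downstream, stood at 1.52 and 0.469 times. The peaks that both replicates listed at these genes were lower in replicate 2 in each case.

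Of the 28 members without a promoter peak in either replicate, 4 (14.3%) had a peak within 5 kb of a start in both replicates, and a further 5 (17.9%) had one in replicate 1 or replicate 2 alone. Among the 8208 genes without a promoter peak, 14.5% had one in both and 13.7% in a single replicate. The window of 5 kb was chosen after the values were seen. The 4 members were Cxcl12, Cxcl17, Ccl17 and Ccl7. Ccl17, a ligand of CCR4 made by dendritic cells, had a peak 2428 bp downstream of its start at 6.19 times the median in replicate 1 and 1.23 times in replicate 2. Ccl7, which attracts monocytes, had one 2429 bp downstream of its start at 1.84 and 0.734 times. Cxcl17, a mucosal chemokine, had one inside the gene, 3206 and 3246 bp from its start, at 1.64 and 0.727 times.

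Away from the starts the members differed less from other genes. Distal peaks, over 1 kb from any protein-coding start and within 50 kb of a start of the member, numbered 4.14 per member in replicate 1 and 2.44 in replicate 2 (mean 3.29 ± 1.20, SD, n = 2). All genes had 6.94 and 3.44. The medians were 4 and 2 for members and 5 and 2 for all genes. At least 1 distal peak was found for 31 and 22 of 36 members, against 87.8% and 73.9% of all genes. Neighbouring members share such peaks. Counted once each, the windows of the members held 108 and 66 distal peaks, or 4.62 and 2.82 per 100 kb, against 5.78 and 2.67 per 100 kb in the windows of all genes. So the density was lower than that of all genes in replicate 1 and slightly higher in replicate 2. Of the 2.34 Mb in the members' windows, 422 kb belong to the chromosome 4 cluster, where recurring sequence limits the measurement. That cluster held 1 and 2 distal peaks. The 31 members whose start has no such match elsewhere had 4.77 and 2.77 distal peaks per member. The nearest protein-coding start was that of a member for 52 of the 108 and 28 of the 66 peaks.

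Distal peaks at chemokine loci were found again in the other library somewhat more often than distal peaks near all genes, a description without a test. Of the 108 in replicate 1, 57 (52.8%) were overlapped by a replicate 2 peak, against 38.6% of the distal peaks near all genes. Of the 66 in replicate 2, 59 (89.4%) were overlapped by a replicate 1 peak, against 84.9%. Their median height was 1.08 and 1.04 times the library median, against 0.981 and 0.895 near all genes. A footprint lay in 83.3% and 92.4% of them, against 78.3% and 86.5%. Of the 57 overlapped replicate 1 peaks, 51 stood higher over the library median in replicate 1 than in replicate 2 (89.5%), against 96.8% near all genes. The relative height was thus larger in replicate 1 for most overlapped distal peaks, at chemokine loci and elsewhere.

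Members whose starts follow each other at gaps of at most 500 kb were joined, which gave 15 clusters and single loci. The distal peaks were unevenly spread over them. Per 100 kb of window, Cxcl17 (14.0), Xcl1 (13.0), Cxcl16 (11), Ccl28 (9), Cxcl9 to Cxcl10 (8.28) and Ccl22 to Ccl17 (6.67) lay above the 5.78 of all genes in replicate 1. The same 6 loci lay above the 2.67 of all genes in replicate 2, at 4.85 to 8, and so did Ccl2 to Ccl1 (3.28) and Cxcl14 (3.99). At the low end were the chromosome 4 cluster (0.237 and 0.474), Ccl20 (1.00 and 0) and the Cxcl5 to Cxcl2 cluster (1.64 and 0).

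**Figure D3:**
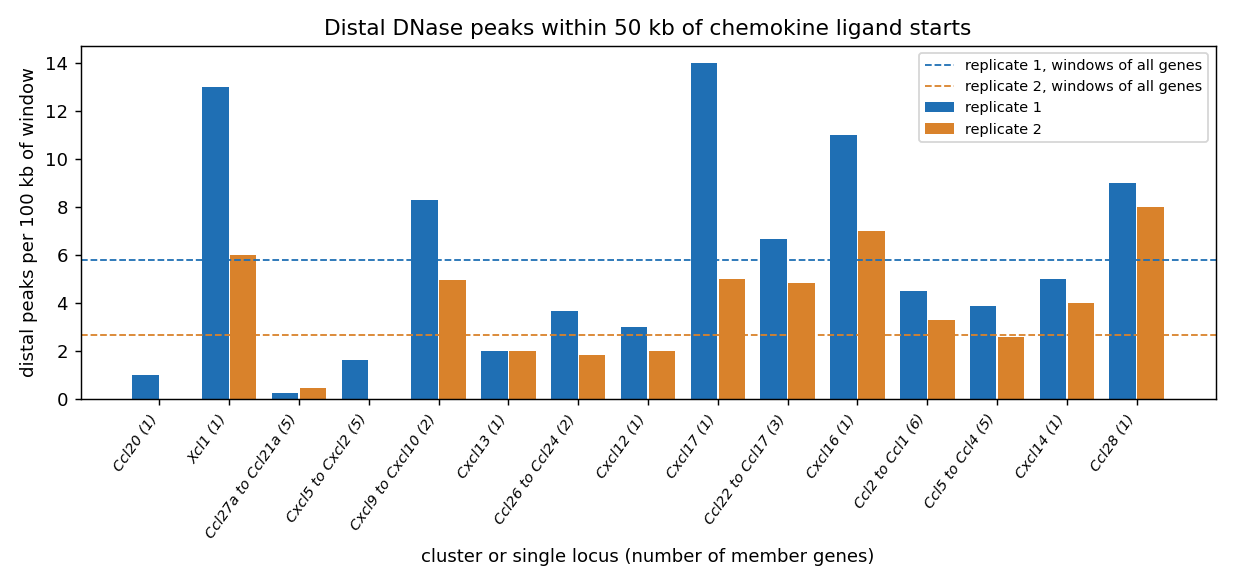
Distal peaks per 100 kb of the joined 50 kb windows around the members' starts, for 15 clusters and single loci with the number of member genes in brackets, by replicate. Dashed lines give the density around the starts of all genes (5.78 for replicate 1, 2.67 for replicate 2). Xcl1, Cxcl17, Cxcl16, Ccl28, Cxcl9 to Cxcl10 and Ccl22 to Ccl17 exceed the line in both replicates.

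The sequences of 3 distal peaks, the highest in the loci of Xcl1, Ccl1 and Ccl22 in replicate 1, are shown because they have no promoter counterpart of like height in their loci among the members. They are given on the plus strand (GRCm38.p6), with bases under a replicate 1 footprint in capitals, and lie at chr1:164898861-164899040, chr11:82174921-82175100 and chr8:94704001-94704180.
Xcl1: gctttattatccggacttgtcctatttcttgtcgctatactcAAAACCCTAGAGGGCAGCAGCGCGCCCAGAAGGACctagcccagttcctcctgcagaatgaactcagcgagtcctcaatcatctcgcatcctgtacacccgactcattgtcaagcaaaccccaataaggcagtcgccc
Ccl1: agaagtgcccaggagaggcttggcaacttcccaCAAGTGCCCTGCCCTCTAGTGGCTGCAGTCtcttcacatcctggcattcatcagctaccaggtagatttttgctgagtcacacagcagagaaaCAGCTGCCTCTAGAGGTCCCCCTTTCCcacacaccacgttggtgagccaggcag
Ccl22: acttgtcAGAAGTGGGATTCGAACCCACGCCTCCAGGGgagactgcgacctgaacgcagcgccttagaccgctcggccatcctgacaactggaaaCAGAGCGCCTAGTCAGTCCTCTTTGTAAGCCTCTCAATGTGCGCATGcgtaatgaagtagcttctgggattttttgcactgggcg
The core of the motif bound by the chromatin architecture protein CTCF (CC, 3 bases of any kind, AG, 2 of any kind, GGC) was searched on both strands of every distal peak, a search added after these sequences were seen. It was found in the Ccl1 peak and not in the peaks shown for Xcl1 and Ccl22. Only exact matches were counted. The capitals of the Xcl1 peak hold a stretch that differs from this core at its first base alone. Over all distal peaks of the members 28.7% and 28.8% held it, against 20.3% and 22.9% of distal peaks near all genes, with median widths of 200 and 184 bp against 200 and 180 bp.

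Xcl1, whose product attracts cross-presenting dendritic cells through XCR1, had no promoter peak but many distal ones. In its windows 13 distal peaks were listed for replicate 1 and 6 for replicate 2. Each of the 6 was overlapped in replicate 1, where they were matched by the 6 highest peaks of the locus. The highest peak lay 36487 bp downstream of the start, at 4.37 times the median in replicate 1 and 1.57 times in replicate 2. Those 24454 and 30614 bp upstream stood at 3.27 and 2.63 times in replicate 1 and at 1.19 and 1.07 times in replicate 2. The second highest in replicate 2, 30187 bp downstream, stood at 1.33 times, and its replicate 1 counterpart at 2.45 times. A peak inside the gene, 1434 bp from the start, was listed at 0.481 times in replicate 1 only. The nearest start of another protein-coding gene, Dpt, is 138883 bp away, so none of these peaks was nearer to another such start.

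Ccl1 had the same arrangement at shorter range. In the cluster of 6 genes from Ccl2 to Ccl1, 11 and 8 distal peaks were listed, and the 3 highest in both replicates lay within 5 kb of the Ccl1 start. The peak 4712 bp downstream stood at 6.72 and 2.32 times the median, one upstream at 3529 and 3509 bp stood at 4.98 and 1.40 times, and one inside the gene at 1352 and 1332 bp stood at 2.81 and 1.65 times. The promoter peak of Ccl1 in replicate 1, at 0.426 times, was far lower than these. The monocyte and eosinophil attractants of this cluster, Ccl2, Ccl7, Ccl11, Ccl12 and Ccl8, had 4, 4, 2, 1 and 1 distal peaks in replicate 1. In replicate 2 they had 2, 2, 1, 0 and 0. The peak between Ccl7 and Ccl11 was shared by the windows of Ccl2, Ccl7 and Ccl11.

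The locus of Ccl22, Cx3cl1 and Ccl17 on chromosome 8 held 11 and 8 distal peaks, of which 7 in each replicate were overlapped in the other. Ccl22, like Ccl17, encodes a CCR4 ligand, and Cx3cl1 encodes a membrane-anchored ligand of CX3CR1. The highest distal peak of the whole set lay here, 41410 bp upstream of Ccl22, with heights of 9.96 and 5.36, or 15.9 and 6.47 times the median. Its nearest protein-coding start is that of Pllp, 7723 bp away. It covers a tRNA-Leu gene of the RefSeq annotation, n-TLcag4 at chr8:94704004-94704086, and a footprint overlapped that gene in both replicates. A second tRNA-Leu gene, n-TLcag5, lay under the neighbouring peak at 1.78 and 1.17 times. These were the only members' distal peaks over a tRNA gene, 2 of 108 (1.85%) and 2 of 66 (3.03%), against 0.261% and 0.485% near all genes. The next highest in replicate 1 was the peak 2428 bp downstream of Ccl17 described above. In replicate 2 it was one 42450 bp upstream of Ccl22, which stood at 3.59 times in replicate 1 and 2.46 times in replicate 2 and was also nearer to a start of Pllp.

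**Figure D4:**
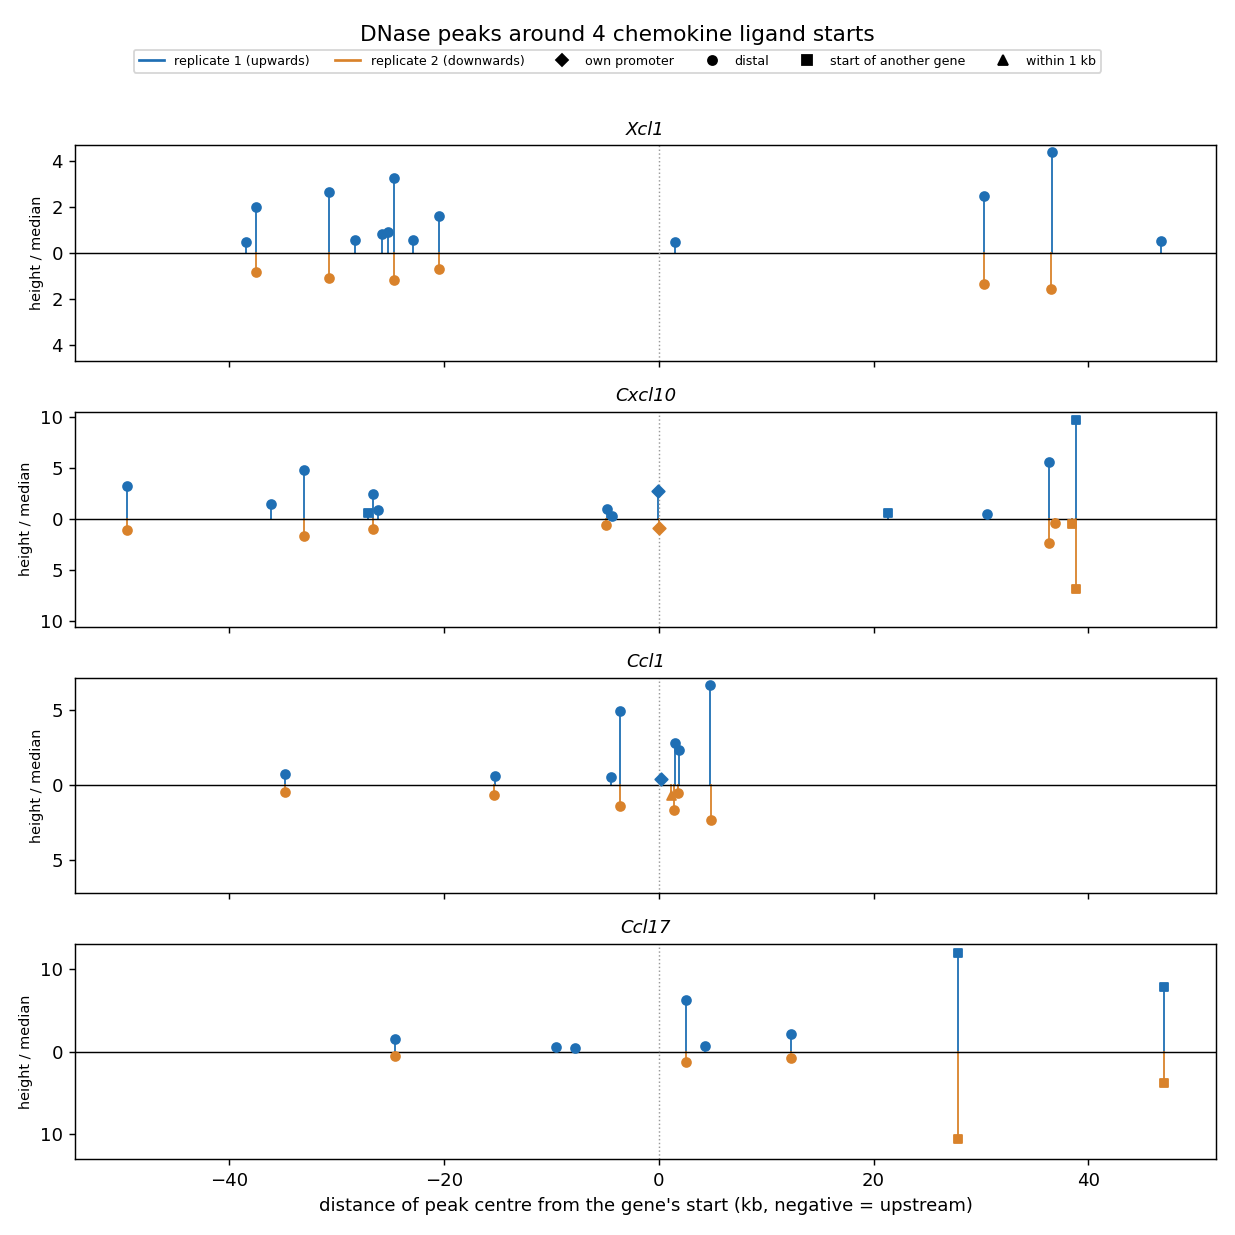
Peaks within 50 kb of the starts of Xcl1, Cxcl10, Ccl1 and Ccl17, by distance of the peak centre from the start (kb, negative is upstream), with height as a multiple of the library median drawn upwards for replicate 1 and downwards for replicate 2. Marker shapes separate the gene's own promoter peak, distal peaks, peaks within 1 kb of another gene's start and other peaks within 1 kb. The Ccl1 peak of 6.72 times the median sits 4.80 kb downstream of the start, while no promoter marker appears for Xcl1 or Ccl17.

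The pair Cxcl9 and Cxcl10 had 10 and 6 distal peaks within 50 kb. The highest, 15459 bp downstream of Cxcl9, stood at 5.60 and 2.31 times the median and was 1942 bp from a start of Sdad1. Peaks 32992 and 49412 bp upstream of Cxcl10, both inside Art3, stood at 4.80 and 3.22 times in replicate 1, and the corresponding replicate 2 peaks at 1.67 and 1.10 times. All 3 lie nearer to starts of other genes than to those of the chemokines.

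In the cluster from Ccl5 to Ccl4 on chromosome 11, which holds ligands of activated lymphocytes and myeloid cells, 9 and 6 distal peaks were listed. In replicate 1 the highest lay 9555 bp downstream of Ccl3, at 4.20 times the median, and the next 8815 bp downstream, at 3.42 times. In replicate 2 the order was the reverse, with 1.92 times at 8895 bp and 1.10 times at 9555 bp. The third was 21996 bp downstream of Ccl9 in replicate 1 alone (2.13 times) and 7918 bp downstream of Ccl3 in replicate 2 (0.469 times). Ccl5, made by memory and effector T cells, had no promoter peak in either replicate and 4 distal peaks in replicate 1 against 0 in replicate 2. Its nearest peak in replicate 1 was 4187 bp upstream at 0.333 times. Ccl9 had a similar split, with 4 and 0. Ccl3, Ccl4 and Ccl6 had 4, 4 and 7 distal peaks in replicate 1, and 5, 6 and 5 were listed for them in replicate 2.

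At Cxcl16 and Cxcl17 the highest distal peak lay inside a neighbouring gene. Around Cxcl16, 11 and 7 distal peaks were listed. The 7 of replicate 2 include chr11:70507021-70507200 and chr11:70509821-70510060, which lie wholly inside other listed peaks. The highest, at 10.3 and 3.83 times the median, lay 46517 bp upstream inside Tm4sf5, and the others named by rank lay 45724 bp downstream (5.53 and 2.17 times) and in Arrb2, 24184 bp downstream in replicate 1 (3.74 times) and 24224 bp in replicate 2 (2.27 times). Cxcl17 had 14 and 5 distal peaks. Of these, the highest lay inside Lipe at 6.52 and 5.07 times, while the second, 11655 bp upstream of Cxcl17 at 6.44 and 1.79 times, had Cxcl17 as its nearest start. The third in replicate 1, also in Lipe, stood at 3.31 times and was not overlapped in replicate 2, where the third stood at 0.811 times, 32090 bp downstream.

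Ccl28, a mucosal ligand of CCR10 and CCR3, had 9 and 8 distal peaks, the smallest difference between replicates among the 6 loci above the density of all genes in both replicates. The highest lay inside the gene, 8062 bp downstream of the start in replicate 1 at 5.90 times the median and 8002 bp in replicate 2 at 2.91 times. The remaining named peaks were 16782 bp downstream (1.98 times, replicate 1 only) and 23339 bp upstream inside Tmem267 (1.62 times in replicate 1, and 1.76 times for the overlapping replicate 2 peak). The third highest in replicate 2, 20619 bp upstream, stood at 1.29 times. The peaks in Tmem267 were nearer to the start of that gene. Cxcl14, a ligand of epithelia and stroma, had 5 and 4 distal peaks, with the highest 16585 and 16565 bp downstream at 2.75 and 1.32 times. Next came a peak 29565 bp downstream in replicate 1 alone (2.25 times) and one 36305 and 36354 bp downstream (1.17 and 0.538 times). The second highest in replicate 2, 33745 bp downstream, stood at 1.04 times.

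The neutrophil attractants had few distal peaks, although Cxcl3 and Cxcl5 were among the 8 members with a promoter peak in replicate 1. Cxcl5, Cxcl3, Cxcl15, Cxcl1 and Cxcl2 on chromosome 5 lay within 50 kb of 1, 1, 0, 1 and 3 distal peaks in replicate 1, which were 4 different peaks, and of 0 in replicate 2. The highest 2 of these, 47708 and 5208 bp downstream of Cxcl2, stood at 2.02 and 1.32 times the median, and the next, at 49308 bp, at 0.722 times. Cxcl15, a lung chemokine of rodents, had no promoter and no distal peak in either replicate. Pf4 and Ppbp, CXC ligand genes of platelets that carry other symbols and lie in the same cluster, had no promoter peak either. Ccl20, the CCR6 ligand, had 1 distal peak in replicate 1, 40326 bp upstream at 1.06 times, and 0 in replicate 2. Ccl26 and Ccl24 are eosinophil attractants that act on CCR3. Ccl24 had 4 and 2 distal peaks, and Ccl26 had 3 and 1 of the same. The highest, 43072 bp upstream of Ccl24 at 3.46 and 1.47 times, lay within 50 kb of Ccl24 alone. The others named by rank lay downstream of Ccl26, at 12369 bp in replicate 1 alone (1.32 times) and at 25929 and 26022 bp (0.722 and 0.392 times).

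The genes for the receptors of these ligands were open more often than the ligand genes. A promoter peak was listed for 8 of 18 chemokine receptor genes in replicate 1 (44.4%) and 6 of 18 in replicate 2 (33.3%), against 61.9% and 56.6% of all genes. Cxcr4, the receptor of Cxcl12, had the highest at 14.0 and 8.07 times the library median (mean 11.0 ± 4.17, SD, n = 2). Ccr7, the receptor of Ccl19 and Ccl21a, followed at 6.99 and 3.65 times, and Ccr9, the receptor of the left-out Ccl25, at 5.25 and 2.69 times. Ccr4, the receptor of Ccl17 and Ccl22, stood at 4.05 and 1.81 times, and Cxcr3 at 0.759 and 0.462 times. Cxcr2 and Cxcr6 had a peak in replicate 1 only. No promoter peak was listed for Ccr1, Ccr2, Ccr3, Ccr6, Ccr8, Ccr10, Cxcr1, Cxcr5, Cx3cr1 and Xcr1 in either replicate. Of the 4 atypical receptors, which bind chemokines without classical signalling, only Ackr3 had one, at 2.33 and 0.622 times.

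Receptor and ligand starts could thus be read side by side. Cxcr4 and Ccr4 had promoter peaks in both replicates while Cxcl12, Ccl17 and Ccl22 had none. Cxcr3 had one in both replicates, as did its ligand Cxcl10. For Cxcl9, which encodes another CXCR3 ligand, a peak was listed in replicate 1 only. Ccr10 had none, like its ligand Ccl28, while its ligand Ccl27a had the highest promoter peak among the members. Xcr1 had none, and neither did Xcl1.

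Short motifs were searched in the RefSeq promoters of the members, from 250 bases before to 50 after a start and on both strands. By symbol, 26 members matched the table, and 25 of these, with 27 promoters, had one within 500 bp of a GENCODE start. The background was all 32851 promoters of the same length. It was not matched for CpG content, and whether the shares below differ through base composition was not tested. Each share of the members rests on 27 promoters, which include near-identical sequences such as those of Ccl27a and Ccl27b. The letters TATAAA of the TATA box, at any position and on either strand, were found in 29.6% of the members' promoters, against 13.6% of all. The AP-1 letters TGANTCA were found in 22.2% against 7.81%, and the interferon response letters (GAAA, 2 bases of any kind, GAAA) in 11.1% against 3.44%. The NF-kB consensus, which can overlap itself on opposite strands, was found in 25.9% against 4.51%, and the ETS letters AGGAAG in 55.6% against 35.4%. The STAT letters TTCNNNGAA (7.41% against 8.30%), the RUNX letters TGTGGT (18.5% against 16.8%) and the CRE half-site letters TGACGT (7.41% against 7.51%) were about as frequent as in all promoters.

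Few of these matches lay in a listed peak. Only 8 of the 36 members had a promoter peak in either replicate, so few matches could lie in one. The same share over all promoters was not counted. ETS matches of Ccl6, beginning at positions -47 and -73, lay in its replicate 1 peak and overlapped no footprint. In the Cxcl10 promoter shown above, AP-1 letters began at position -74 from the start and overlapped a footprint in replicate 2 only. Its NF-kB matches began at positions -103 and -159. The match at -103 lay inside the promoter peak in both replicates. The match at -159, at chr5:92349039-92349048, overlapped only the last bases of the peak, which ended at 92349040. Neither overlapped a footprint. Its interferon response letters, at position -213, lay outside the peak. Cxcl1, Cxcl2 and Cxcl3 each had NF-kB letters less than 100 bases before the start, and no peak covered these bases in either replicate. In the Ccl27a promoter printed above none of the 8 motifs was found. The matches in Ccl27a belong to its downstream start, where no peak was listed.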

How the data were processed

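The members and gene lists were chosen with earlier results of these data known. Each library was deposited with 2 peak files, footprints and base-level FDR values on mm10, derived per library and not pooled, per the README deposited by the authors. Peak height is the authors' deposited signal, from the larger peak file by rows. The deposited FDR files (q-values of the cut rate) list bases under 0.05, and the footprint file carries the constant value 0.01 in the authors' score column. Aligner, callers and read depth are not given in the sources used here. Starts are those of protein-coding transcripts in GENCODE M21, and sequence is GRCm38.p6. Counts were made with Python 3.11.15 and NumPy 2.4.6, and copies were searched with BLAST+ 2.17.0. Overlap was counted from 1 bp, and coordinates are 1-based. Code was checked on simulated peaks. All members are accounted for. Of the receptors, the 6 highest are named with those lacking a peak, except that 1 of them is not reported here, and of clusters the 3 highest distal peaks per replicate where as many were listed. The labels give separate females, and replicates showed the spread between 2 libraries, so no test was run. Alternatives varied peak file, peak number, windows, starts, gaps, overlap and replicates.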

Additional observations from a re-analysis of the deposited data

How the results depend on the processing

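Of 51 alternative values, 44 moved by less than the spread between the replicates and 7 moved by more. With 2 replicates, either value alone always lies within the SD of their mean. Leaving out a replicate was therefore bound to count among the 44. The share of members with a promoter peak ran from 8.33% without replicate 1 to 22.2% without replicate 2, and the members called in both replicates were Ccl27a, Ccl4 and Cxcl10 with the smaller peak file, equal peak numbers, windows of 250 bp, the gene 5′ end alone and peak midpoints. A window of 1 kb added Ccl9 and Cxcl2 in replicate 1 and Ccl1 in replicate 2. The starts of all transcripts, an alternative chosen after seeing the data, changed no member's call. The median promoter height over the library median (0.756 as a mean of the replicates) moved to 1.05 with equal peak numbers and to 1.05 within 250 bp, where fewer low peaks enter, and ran from 0.667 without replicate 2 to 0.846 without replicate 1. Distal peaks per member moved to 5.83 in 100 kb windows, 1.51 in 25 kb windows and 1.11 when a peak counted for its nearest start alone, and ran from 2.44 to 4.14 when either replicate was left out. Distal peaks per cluster (5.80) moved to 8.57 in 100 kb and 3.03 in 25 kb windows and ran from 4.40 to 7.20. The share of members' peaks found in the other replicate ran from 52.1% to 88.7%, and the share of called promoters with a footprint from 62.5% to 100%. Leaving out a replicate leaves 1 library, a value without a spread. No paired analysis was possible because there was only 1 group. Read depth is not given in the sources used here, so a peak missing in replicate 2 cannot be told apart from a peak under its detection limit.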
